A study of Schizosaccharomyces pombe with 16 samples.

Results

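The comparison described here set the fission yeast mutant fcp1-452 against the wild-type strain L972 at 37 °C in medium that contained nitrogen. Its members were chosen by title: 6 of the 16 arrays of the series, 3 of each strain, carried the labels for that strain, medium and temperature. In each strain the array of set 1 was a near copy of replicate 1 of set 2, so the 6 arrays gave 4 samples, replicates 1 and 2 of each strain. The labels call fcp1-452 a temperature-sensitive mutant, and the design uses 26 °C and 37 °C. The medium was EMM2, a synthetic minimal medium. The source names describe wild type at 37 °C as growing logarithmically and fcp1-452 at 37 °C only as incubated, although the shared growth protocol gives a harvest in log phase. Growth state and allele at 37 °C therefore cannot be told apart. The time at 37 °C, the mating type of the mutant and whether replicates were separate cultures were not stated in the sources used. The p-values below therefore reflect only how far these samples differed, and that spread may be technical in origin. The other groups used below are fcp1-452 and wild type at 26 °C with nitrogen (2 samples each) and the groups without nitrogen (1 array each).

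Fcp1 is the phosphatase that removes phosphate from the carboxy-terminal domain, the repetitive tail of the largest subunit of RNA polymerase II. Kinases phosphorylate this tail as the polymerase starts and elongates a transcript, and capping, splicing and 3' end factors bind it in its phosphorylated forms. Its dephosphorylation returns the polymerase to a state that can start transcription again. Polyadenylated RNA, the class measured here, is made by this polymerase.

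Each deposited value is the ratio of a probe set to its own median over the 8 arrays of a set, so a value of 1 is that median and levels of different genes cannot be compared. Ratios quoted below are those of set 2. Differences are log2 values, fcp1-452 minus wild type, ± SE from limma with n = 2 per strain. A probe set was called at a Benjamini-Hochberg adjusted p under 0.05 over 4999 probe sets. Limma estimated 1 spread per probe set over the groups with nitrogen, at 26 °C and 37 °C together. The typical spread (prior SD) was 0.135 in that fit and 0.209 in the 37 °C samples alone. SEs and p-values at 37 °C can therefore be too small, and those at 26 °C too large. Array-wide, the set 1 arrays correlated with replicate 1 at r = 0.975 to 0.990 in the 4 groups with nitrogen, and with replicate 2 at r = 0.652 to 0.765. At 26 °C limma called 0 probe sets between the strains (19 had an unadjusted p under 0.05), and the differences of the replicates did not correlate (r = -0.011). Because the shared spread can be too large for 26 °C, 0 calls there do not show that the strains were alike. The number of arrays limits the precision.

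The transcript of the mutated gene itself was measured in every sample. The ratio of fcp1 was 0.749 and 1.016 in fcp1-452 at 37 °C, against 0.968 and 1.095 in wild type at 37 °C. At 26 °C it was 0.944 and 1.126 in fcp1-452 and 0.984 and 1.075 in wild type. The samples of the strains overlapped, and the difference of -0.24 ± 0.12 was not called (adjusted p = 0.169). A transcript ratio does not check a mutation that acts on the protein.

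At 37 °C with nitrogen, 34% of all probe sets were called, 1698 of 4999: 736 were higher in fcp1-452 (14.7%) and 962 lower (19.2%). Changes of 2-fold or more numbered 171 higher (3.42%) and 311 lower (6.22%). Among the 2899 genes with a name, 404 were higher (13.9%) and 533 lower (18.4%), and these shares are the background for every gene list below. All 1698 called probe sets had the same sign in both replicates, which a call from 2 replicates largely requires. Over all probe sets the replicate differences correlated at r = 0.720, as a description. The median difference was -0.04 over all probe sets, 0.69 over those called higher and -0.77 over those called lower. The submitters used RMA, which puts arrays on a common scale, so a shift shared by most transcripts may have been removed. Rises and falls are therefore relative to the other transcripts of an array, and the median near 0 does not measure the total RNA level.

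**Figure D1:**
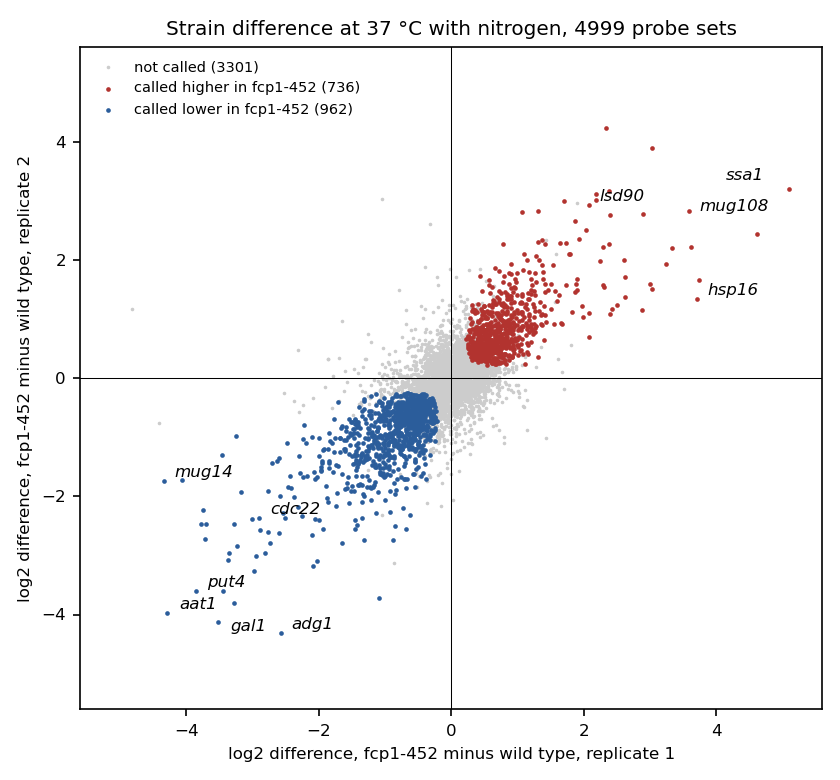
Log2 difference of fcp1-452 minus wild type at 37 °C with nitrogen in replicate 1 (horizontal) and replicate 2 (vertical), 1 point per probe set, with the 736 called higher in red and the 962 called lower in blue. All called points lie in the quadrants where both replicates have the same sign, and 2 probe sets that were not called lie outside the axes.

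The 26 °C samples show which strain moved away from the other samples. Among probe sets called higher, both fcp1-452 samples at 37 °C lay above the other 6 samples with nitrogen in 566 of 736, against 813 of all probe sets (16.3%). Both wild-type samples at 37 °C lay below the other 6 in 126, against 197 of all (3.94%), 85 did both and 129 neither. Among those called lower, both fcp1-452 samples lay below the other 6 in 724 of 962, against 1011 of all (20.2%), and both wild-type samples lay above the other 6 in 183, against 290 of all (5.8%). Of these 111 did both and 166 neither. The calls rest on the same 37 °C values, so an excess over the shares of all probe sets is partly built in. The mutant samples at 37 °C stood outside the other 3 groups for most called probe sets, and for a smaller number the wild-type samples did. These counts set samples of both replicates side by side, so they ignore shifts shared within a replicate and can miss genes that separate within each.

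The largest rises in fcp1-452 included genes of protein folding, trehalose and oxidative stress. The cytosolic Hsp70 chaperone gene ssa1 had ratios of 6.021 and 8.411 in fcp1-452, against 0.17 and 0.912 in wild type (4.15 ± 0.62, adjusted p = 0.0074). Both mutant samples were high, and the wild-type samples differed from each other, replicate 1 being the lower. The small heat shock protein gene hsp16 had ratios of 16.91 and 17.86 in fcp1-452 and of 1.208 and 7.094 in wild type (2.52 ± 0.69, adjusted p = 0.0386). Wild type of replicate 2 was itself high for hsp16, since the 26 °C samples lay between 0.532 and 0.792. The neutral trehalase gene ntp1 had ratios of 2.812 and 3.561 in fcp1-452 and of 0.346 and 1.179 in wild type (2.30 ± 0.47). The trehalose-6-phosphate synthase gene tps1 had 1.841 and 1.869 in fcp1-452 and 0.396 and 0.646 in wild type (1.92 ± 0.30). Transcripts of the enzymes that make and break down trehalose, a stress-protective sugar, were thus both higher in the mutant in each replicate.

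The metallothionein gene zym1, whose product binds metal ions, had ratios of 3.166 and 17.78 in fcp1-452 against 0.965 and 2.223 in wild type (2.35 ± 0.56, adjusted p = 0.0252). Both mutant samples were above every other sample, replicate 2 by the wider margin. For the catalase gene ctt1 the ratios were 1.109 and 2.127 in fcp1-452 and 0.312 and 0.495 in wild type (1.94 ± 0.37). For ish1, a stress-induced gene of the nuclear envelope, they were 0.939 and 3.197 in fcp1-452 and 0.468 and 0.456 in wild type (1.94 ± 0.50). In both genes the wild-type samples at 37 °C lay below all other samples, and the mutant samples did not stand above the range at 26 °C (0.849 to 1.184 for ctt1 and 0.946 to 1.216 for ish1) in both replicates.

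The DNA glycosylase gene mag1, of base excision repair, showed the tightest of the large rises, with 3.422 and 3.286 in fcp1-452 and 1.004 and 0.77 in wild type (1.94 ± 0.12, adjusted p = 0.0017). The 26 °C samples lay between 0.787 and 1.032, so the mutant at 37 °C stood alone. The gene etr1, of mitochondrial fatty acid synthesis, had 2.834 and 3.936 in fcp1-452 and 0.799 and 0.775 in wild type (2.13 ± 0.23). The gene lsd90 had 2.935 and 7.574 in fcp1-452 and 0.771 and 1.001 in wild type (2.50 ± 0.49). The meiotically upregulated genes mug108 (3.21 ± 0.32), mug147 (2.17 ± 0.45), mug8 (2.07 ± 0.40) and mug9 (1.81 ± 0.30) and the Hsp40 co-chaperone gene psi1 (1.93 ± 0.35) complete the 15 largest rises. The ratios of mug108 were 12.27 and 7.575 in fcp1-452 and 0.971 and 1.074 in wild type, so the groups were far apart. The next gene in rank was nab3 (1.80 ± 0.28).

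The largest falls held transporters of nitrogen compounds. The amino acid transporter gene aat1 had ratios of 0.0752 and 0.06 in fcp1-452, against 1.445 and 0.941 in wild type (-4.13 ± 0.23, adjusted p = 0.00107), a 17.5-fold difference. The proline permease gene put4 had 0.0773 and 0.0348 in fcp1-452 and 1.159 and 0.423 in wild type (-3.73 ± 0.26). The ammonium transporter gene amt1 had 0.126 and 0.0536 in fcp1-452 and 1.186 and 0.384 in wild type (-3.04 ± 0.23). For all 3 genes both mutant samples were below every other sample, wild type of replicate 2 being the lower wild-type sample. The amino acid permease gene isp5 had 0.296 and 0.22 in fcp1-452 and 3.966 and 1.035 in wild type (-2.99 ± 0.33), and isp7, an oxygenase gene that responds to nutrients, had 0.171 and 0.0636 in fcp1-452 and 2.397 and 0.421 in wild type (-3.22 ± 0.41). The gap between the wild-type replicates was wide for both, but no mutant sample reached either of them.

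The galactose genes gal1 and gal10 were lower, and for both the wild-type samples at 37 °C were above all others. The galactokinase gene gal1 had 0.152 and 0.136 in fcp1-452 and 1.682 and 2.388 in wild type (-3.83 ± 0.28, adjusted p = 0.0022). The epimerase gene gal10 had 0.673 and 1.237 in fcp1-452 and 4.484 and 7.541 in wild type (-2.69 ± 0.22). The mutant ratios of gal10 were within or just above those of the 26 °C samples (0.642 to 1.142), whereas those of gal1 were far below the 26 °C samples (0.68 to 1.085). The third gene of the pathway, gal7, had 1.093 and 1.679 in fcp1-452 and 1.488 and 1.398 in wild type and was not called (-0.10 ± 0.20, adjusted p = 0.748). The meiotically upregulated gene mug14 was also high in wild type, with 0.156 and 0.899 in fcp1-452 and 3.06 and 2.995 in wild type (-3.04 ± 0.60), and mug146 was low in the mutant and high in wild type (0.365 and 0.526 against 3.684 and 2.758, difference -2.70 ± 0.22).

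The other large falls came from diverse functions. The vacuolar transporter gene abc3 had 0.194 and 0.204 in fcp1-452 and 1.539 and 1.639 in wild type (-2.97 ± 0.16), with close replicates in both strains. The iron-regulated transporter gene str3 had 0.141 and 0.0985 in fcp1-452 and 1.034 and 0.583 in wild type (-2.73 ± 0.71). The mitochondrial protein gene mmf2 had 0.143 and 0.0781 in fcp1-452 and 1.309 and 1.091 in wild type (-3.54 ± 0.19). The ribosomal protein gene rpl1603 had 0.0668 and 0.167 in fcp1-452 and 0.975 and 0.925 in wild type (-3.12 ± 0.34), the largest fall of the ribosomal protein genes measured. The cell surface protein gene adg1 and the replication licensing gene cdt1, described with the cell cycle below, complete the 15. The next gene in rank was cdc22 (-2.64 ± 0.22).

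**Figure D2:**
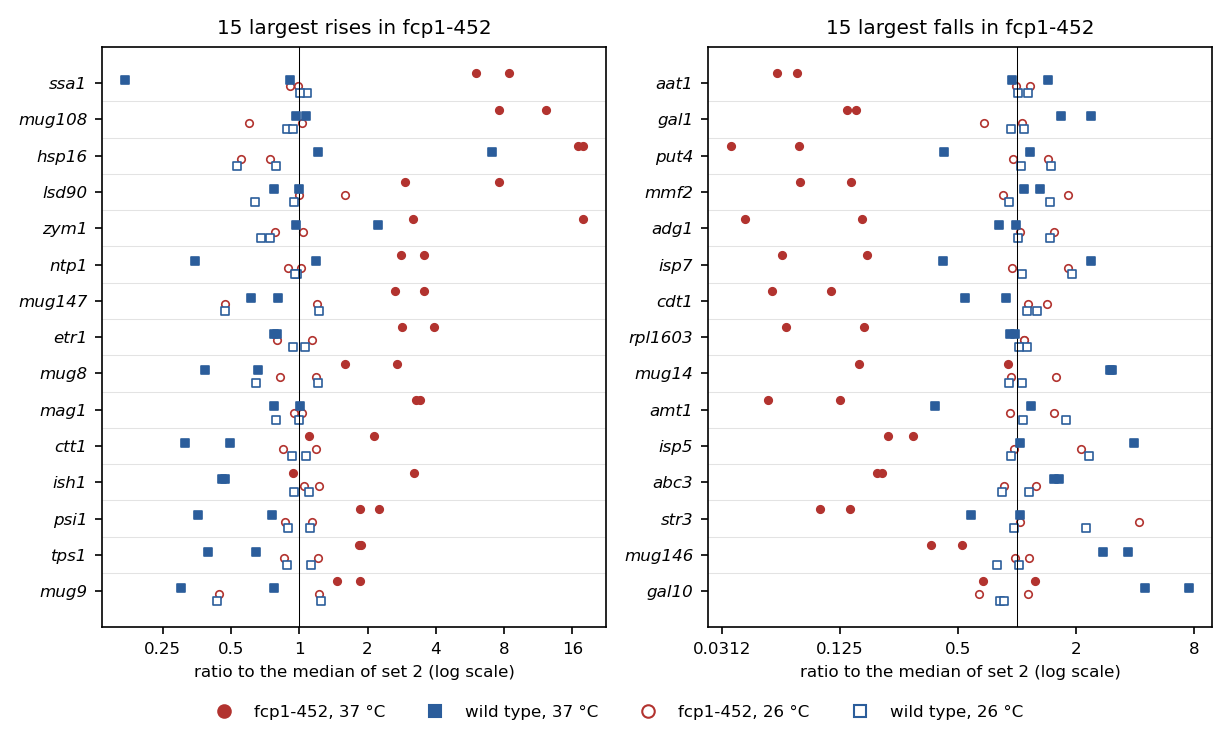
Deposited ratio (log axis, 1 is the median of the probe set over set 2) for the 15 named genes with the largest rise and the 15 with the largest fall, with fcp1-452 at 37 °C as filled red circles, wild type at 37 °C as filled blue squares and the 26 °C samples as open symbols, 2 replicates each. For aat1 the mutant points at 37 °C are 0.0752 and 0.06 while the other 6 lie between 0.941 and 1.445, and for gal10 it is the wild-type points, 4.484 and 7.541, that leave the rest.

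Nearly all measured genes of the start of S phase fell. The MBF complex activates a wave of transcripts at the G1/S boundary, and 17 of 19 measured targets were lower in fcp1-452 (89.5%) and 0 higher, with a median of -1.14 and 10 at 2-fold or more. The licensing factor cdt1, which loads the replicative helicase, had ratios of 0.0563 and 0.113 in fcp1-452 against 0.545 and 0.877 in wild type (-3.15 ± 0.37, adjusted p = 0.00411). The large ribonucleotide reductase subunit cdc22, which makes deoxynucleotides, had 0.12 and 0.175 in fcp1-452 and 0.894 and 0.907 in wild type (-2.64 ± 0.22). The partner of cdt1 in licensing, cdc18, had 0.13 and 0.322 in fcp1-452 and 0.835 and 0.872 in wild type (-2.07 ± 0.39). In each of these genes both mutant samples lay below all others, as in 16 of the 19 targets. In these bulk samples, fewer cells at the G1/S boundary and less RNA of these genes per cell cannot be told apart. The S phase cyclin gene cig2 had 0.184 and 0.216 in fcp1-452 and 1.206 and 0.86 in wild type (-2.29 ± 0.18), and cdt2, the adaptor of the ubiquitin ligase that destroys Cdt1, had 0.276 and 0.2 in fcp1-452 and 1.338 and 0.73 in wild type (-2.14 ± 0.22). The 17 lower calls became 10 after quantile normalization, 6 without the replicate block, and 10 and 7 without wild type at 37 °C of replicate 1 and replicate 2.

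The 8 genes of the MBF subunits and regulators did not move together. The MBF core subunit cdc10 was lower (-0.66 ± 0.17), as was the coactivator rep2 (-1.38 ± 0.20), with 0.595 and 0.443 in fcp1-452 and 2.035 and 0.89 in wild type. The DNA-binding subunit res2 was higher (0.61 ± 0.16), and the other DNA-binding subunit res1 (-0.39 ± 0.12, adjusted p = 0.0577) and the activator rep1 (0.99 ± 0.33, adjusted p = 0.0647) were not called. The checkpoint kinase gene chk1 was lower, with 0.47 and 0.606 in fcp1-452 and 2.182 and 1.6 in wild type (-1.63 ± 0.22, adjusted p = 0.00566), while cds1, the replication checkpoint kinase, was higher (0.77 ± 0.13). The upstream kinase rad3 was at -0.89 ± 0.30 and not called (adjusted p = 0.0671). For chk1 the wild-type samples at 37 °C were also above all others, so the mutant and wild type left the 26 °C range in opposite directions.

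The wider replication machinery changed less. Of 42 genes 8 were lower (19.0%, close to the 18.4% of all named genes) and 3 higher, with a median of -0.20. The DNA polymerase delta subunit cdm1 was the exception in size, with 0.292 and 0.252 in fcp1-452 and 1.011 and 1.074 in wild type (-1.97 ± 0.35). The helicase subunit mcm6 (-0.78 ± 0.10), the clamp loader subunit rfc5 (-0.78 ± 0.18) and the GINS subunit psf1 (-0.66 ± 0.11) were lower by smaller amounts, and the GINS subunit psf2 was higher (0.69 ± 0.15). The 8 lower calls became 2 after quantile normalization, 0 without the replicate block, and 2 and 1 without wild type at 37 °C of replicate 1 and replicate 2.

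Histone genes fell as well. Of 12 core histone genes, variants and their regulator, 7 were lower (58.3%) and 1 higher, with a median of -0.73. The regulator ams2, a GATA-type factor that activates histone genes in S phase, had 0.263 and 0.321 in fcp1-452 and 1.208 and 1.013 in wild type (-1.92 ± 0.30, adjusted p = 0.00832). The centromeric histone gene cnp1 had 0.703 and 0.281 in fcp1-452 and 1.555 and 1.011 in wild type (-1.53 ± 0.22). The histone H3 gene hht1 had 0.369 and 0.363 in fcp1-452 and 0.948 and 0.951 in wild type (-1.35 ± 0.10), with close replicates in both strains. The H4 genes hhf1 (-1.21 ± 0.21) and hhf3 (-1.18 ± 0.21) were also lower. The exception was hht2, another H3 gene, chosen here after its value was seen, with 1.082 and 1.481 in fcp1-452 and 0.883 and 0.96 in wild type (0.46 ± 0.13, adjusted p = 0.0385). Near-identical histone copies can share probe signal, so the values of single copies are uncertain. The 7 lower calls became 2 after quantile normalization, 4 without the replicate block and 1 without either wild-type sample at 37 °C.

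The transcripts that peak as cells divide were split. Of 37 septation and M/G1 genes, 12 were lower (32.4%) and 0 higher, but the list median was only -0.08. The falls were led by genes of the adg group: adg1 had 0.163 and 0.041 in fcp1-452 and 0.988 and 0.814 in wild type (-3.44 ± 0.41, adjusted p = 0.00443), and adg2 had 0.232 and 0.081 in fcp1-452 and 1.013 and 0.734 in wild type (-2.63 ± 0.27). The related adg3 (-1.72 ± 0.19), the kinesin gene klp8 (-1.74 ± 0.17) and mid2, an anillin-like protein of the septin ring (-1.59 ± 0.13), were lower too. In 12 genes of the list both mutant samples lay below the other 6, 10 of them called lower. The count became 7 after quantile normalization, 2 without the replicate block, and 8 and 6 without wild type at 37 °C of replicate 1 and replicate 2.

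Of 19 genes of the cyclin-dependent kinase and its regulators, 7 were lower (36.8%) and 1 higher (median -0.40). Besides cig2, the inhibitory kinase mik1 had 0.445 and 0.323 in fcp1-452 and 1.198 and 0.89 in wild type (-1.43 ± 0.23), and the phosphatase clp1 (-0.73 ± 0.14) and the cyclin cig1 (-0.66 ± 0.13) were lower. The single higher gene was cdr1, a kinase that promotes entry into mitosis (0.76 ± 0.10). After quantile normalization 1 gene was called lower, 1 without the replicate block, and 3 and 2 without wild type at 37 °C of replicate 1 and replicate 2. Of 42 spindle and kinetochore genes 10 were higher (23.8%) and 7 lower (16.7%), beside 13.9% and 18.4% of all named genes. The kinesin klp9, which elongates the anaphase spindle, had 2.038 and 1.987 in fcp1-452 and 0.86 and 0.905 in wild type (1.23 ± 0.11, adjusted p = 0.00272), and the DASH complex subunits dam1 (1.15 ± 0.12) and dad1 (0.81 ± 0.10) and the checkpoint gene mad2 (0.81 ± 0.18) were higher, while the centromere loading factor mis16 was lower (-0.70 ± 0.11). The 10 higher calls became 3 with quantile normalization, 1 with no replicate block and 3 without either wild-type sample at 37 °C.

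Genes for taking up nitrogen sources were among the largest falls. Of 10 uptake genes 6 were lower (60%) and 0 higher, with a median of -1.02 and 5 at 2-fold or more: aat1, put4, amt1 and isp5, given above, and the permease gene per1, with 0.254 and 0.325 in fcp1-452 and 0.901 and 0.622 in wild type (-1.39 ± 0.22). Of 14 genes of nitrogen assimilation and of alternative sources, 7 were lower (50%) and 1 higher (median -0.54). They include the enzymes that fix ammonium into glutamate and glutamine. The glutamate synthase gene glt1 had 0.316 and 0.238 in fcp1-452 and 1.074 and 0.971 in wild type (-1.95 ± 0.14, adjusted p = 0.00212), the glutamine synthetase gene gln1 had 0.361 and 0.21 in fcp1-452 and 0.969 and 0.734 in wild type (-1.58 ± 0.23), and the glutamate dehydrogenase gene gdh1 had 0.321 and 0.388 in fcp1-452 and 0.866 and 0.827 in wild type (-1.25 ± 0.12). In all 3 both mutant samples lay below every other sample. The higher gene was urg1, a uracil-regulated gene (0.72 ± 0.22, adjusted p = 0.0485). The uptake list had 4 or 5 lower calls, and the assimilation list 3 or 4, when either wild-type sample at 37 °C was left out, when values were quantile normalized or when the replicate block was dropped.

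Biosynthetic enzymes fell by smaller amounts and in larger numbers. Of 47 amino acid biosynthesis genes, 23 were lower (48.9%) and 1 higher, with a median of -0.48 and 10 at 2-fold or more. The glycine cleavage gene gcv1 had 0.243 and 0.161 in fcp1-452 and 1.42 and 0.579 in wild type (-2.15 ± 0.17), and the serine biosynthesis gene ser2 had 0.269 and 0.171 in fcp1-452 and 1.11 and 0.5 in wild type (-1.76 ± 0.18). The arginine, lysine and histidine genes arg4 (-1.22 ± 0.15), lys2 (-1.21 ± 0.12) and his2 (-1.16 ± 0.11) were lower too. Of 18 purine and pyrimidine genes 12 were lower (66.7%) and 0 higher (median -0.53). The largest was the purine gene ade5, with 0.347 and 0.18 in fcp1-452 and 1.067 and 0.676 in wild type (-1.71 ± 0.22), and ade9, ade3, ade10 and ade4 lay between -0.89 and -0.62. After quantile normalization 6 amino acid genes and 1 nucleotide gene were called lower, and 7 and 0 without the replicate block. Without wild type at 37 °C of replicate 1 they were 7 and 1, and of replicate 2 14 and 3.

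Translation genes showed a modest shift. Of 21 aminoacyl-tRNA synthetase genes, which charge transfer RNAs, 11 were lower (52.4%) and 0 higher, with a median of -0.45. The aspartate enzyme drs1 had 0.585 and 0.561 in fcp1-452 and 1.172 and 1.09 in wild type (-0.96 ± 0.11), and qrs1 (-0.85 ± 0.22), wrs1 (-0.79 ± 0.13), frs2 (-0.67 ± 0.10) and yrs1 (-0.65 ± 0.12) followed. After quantile normalization or without the replicate block 2 synthetase genes were called, and 1 without either wild-type sample at 37 °C. Of 118 cytosolic ribosomal protein genes 22 were lower (18.6%, close to the background of 18.4%) and 0 higher, and 101 had a negative value (median -0.12). After rpl1603 the largest falls were in rpp203 (-0.72 ± 0.12), rps2601 (-0.69 ± 0.11), rpp103 (-0.68 ± 0.14) and rpl2701 (-0.66 ± 0.09). Quantile normalization lowered the count of 22 to 3, and dropping the replicate block or either wild-type sample at 37 °C lowered it to 1. The paralogous ribosomal protein genes can share probe signal. Ribosome biogenesis had 4 higher and 2 lower genes of 43 (9.30% and 4.65%), both below the background shares and both 0 after quantile normalization, with values from -0.68 to 0.56.

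A few chaperone genes rose by large amounts. Of 22 heat shock and chaperone genes 5 were higher (22.7%) and 0 lower, with a median of 0.27. Beside ssa1, hsp16 and psi1, the Hsp90 co-chaperone cdc37, which delivers kinases, had 2.157 and 2.293 in fcp1-452 and 0.935 and 1.262 in wild type (1.02 ± 0.12), and the mitochondrial Hsp40 gene mdj1 was higher (0.91 ± 0.10). Other chaperones were not called: hsp90 was at 0.37 ± 0.18 (adjusted p = 0.156), the second cytosolic Hsp70 gene ssa2 at 0.26 ± 0.22 (adjusted p = 0.399), hsp9 at 1.18 ± 0.39 (adjusted p = 0.0625), and the heat shock factor gene hsf1 at 0.28 ± 0.19 (adjusted p = 0.293). The large values of ssa1 and hsp16 were thus not matched across the list. Without wild type at 37 °C of replicate 1, in which ssa1 and ntp1 were low, 3 chaperone genes were called higher, and 7 without that of replicate 2.

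Of 45 genes of the core environmental stress response, normally induced by many stresses through the kinase Sty1 and the factor Atf1, 15 were higher (33.3%) and 6 lower (13.3%), with a median of 0.30. The 5 largest, zym1, ntp1, ctt1, ish1 and psi1, are given above. In 11 genes of the list both mutant samples at 37 °C lay above the other 6 samples, and in 8 both wild-type samples lay below them. The 15 higher calls became 12 after quantile normalization, 4 without the replicate block, and 3 and 7 without wild type at 37 °C of replicate 1 and replicate 2.

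Genes of protein breakdown rose. Of 25 genes of autophagy and vacuolar proteolysis 14 were higher (56%) and 1 lower, with a median of 0.61. The kinase atg1, which starts autophagy, had 2.058 and 2.097 in fcp1-452 and 0.979 and 0.877 in wild type (1.19 ± 0.13, adjusted p = 0.00346), and its partner atg13 had 2.522 and 2.337 in fcp1-452 and 1.063 and 0.728 in wild type (1.44 ± 0.14). The vacuolar serine proteases psp3 and isp6 had 1.909 and 1.935, and 1.391 and 2.237, in fcp1-452. In wild type psp3 had 0.852 and 0.557, and isp6 had 0.878 and 0.613 (1.49 ± 0.16 and 1.26 ± 0.29). The phosphoinositide-binding gene atg1801 was also higher (1.07 ± 0.23). The count of 14 became 10 after quantile normalization, 6 without the replicate block, and 9 and 6 without wild type at 37 °C of replicate 1 and replicate 2.

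Of 30 proteasome genes 15 were higher (50%) and 0 lower, and 29 had a positive value, but the sizes were small (median 0.35). The lid deubiquitinase subunit rpn11 had 2.004 and 1.449 in fcp1-452 and 0.853 and 0.822 in wild type (1.02 ± 0.13, adjusted p = 0.00472), and pup2, pup3, rpn12 and pup1 lay between 0.70 and 0.73. Without either wild-type sample at 37 °C 1 proteasome gene was called, and 8 were after quantile normalization. Of 43 genes of ubiquitin and its conjugating enzymes, 14 were higher (32.6%) and 3 lower. The segregase cofactor ufd1 had 1.578 and 1.933 in fcp1-452 and 0.799 and 0.726 in wild type (1.21 ± 0.13), and the conjugating enzymes ubc6 (1.08 ± 0.16) and ubc8 (0.97 ± 0.11) and the deubiquitinase ubp11 (0.92 ± 0.19) were higher, whereas ubc12, the conjugating enzyme of the ubiquitin-like protein Nedd8, was lower, with 0.638 and 0.409 in fcp1-452 and 1.448 and 1.701 in wild type (-1.63 ± 0.29). The 14 higher calls became 9 after quantile normalization, 1 without the replicate block and 4 without either wild-type sample at 37 °C.

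**Figure D3:**
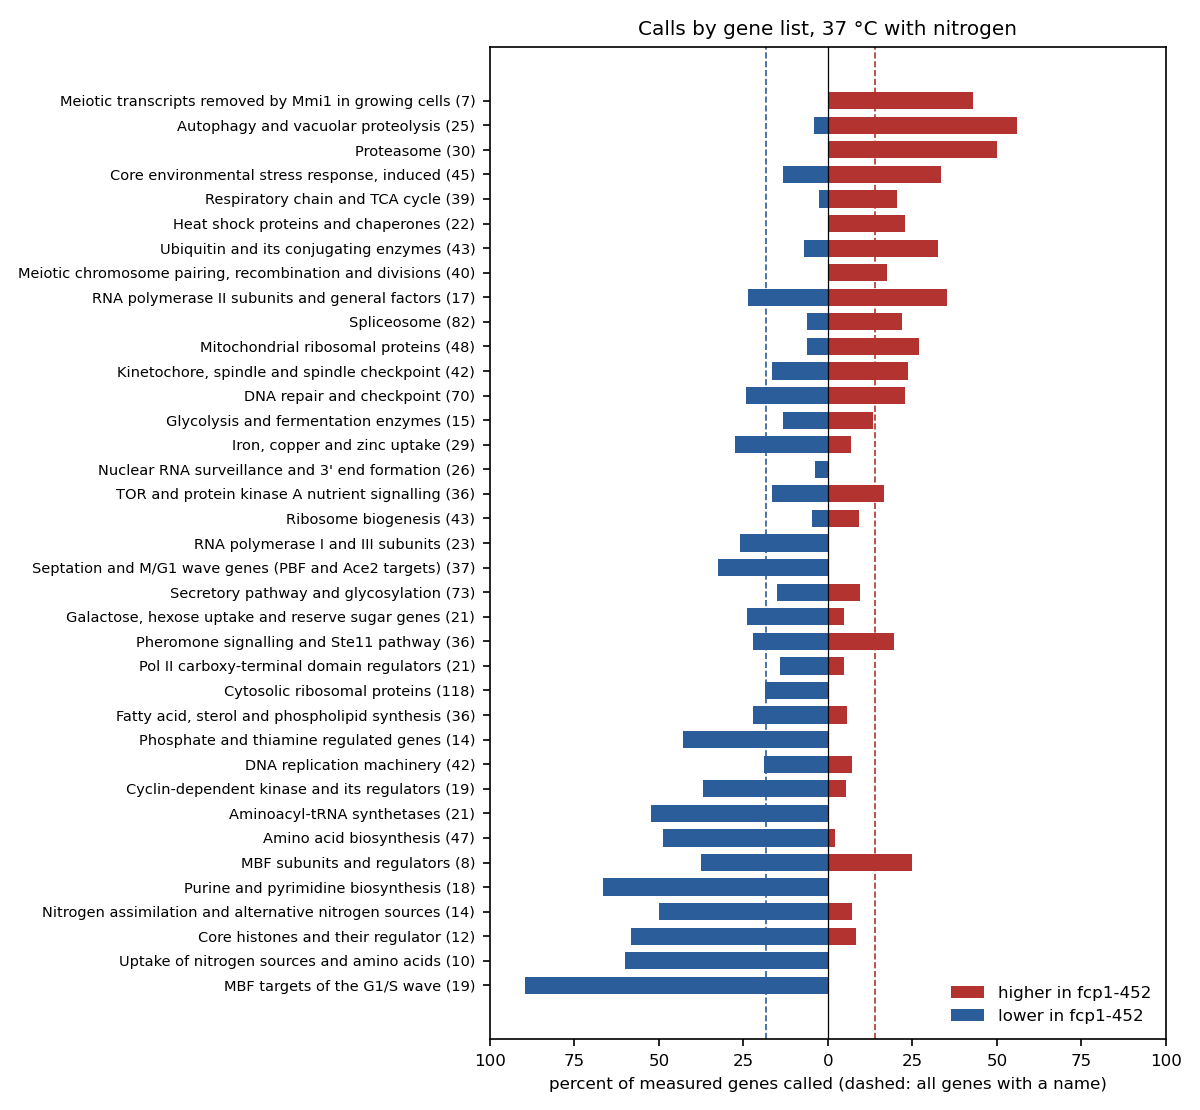
Percent of the measured genes of each list called higher (red, right) and lower (blue, left) in fcp1-452 against wild type at 37 °C with nitrogen, sorted by the list median, with list sizes in brackets and the shares of all named genes, 13.9% and 18.4%, as dashed lines. MBF targets, nucleotide synthesis, nitrogen uptake and histones extend far left of the dashed line, and autophagy and the proteasome far right of it.

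Carbon and energy genes moved less as groups. Of 21 galactose, hexose uptake and reserve sugar genes 5 were lower (23.8%) and 1 higher. The hexose transporter gene ght3 had 0.233 and 0.389 in fcp1-452 and 0.897 and 3.322 in wild type (-2.56 ± 0.27), and the maltase gene mal1 was lower (-0.46 ± 0.12), while fbp1, the gluconeogenic fructose bisphosphatase that is repressed by glucose, had 3.102 and 2.431 in fcp1-452 and 1.162 and 1.167 in wild type (1.20 ± 0.18, adjusted p = 0.00747). Glycolysis and fermentation had 2 higher (fbp1 and the gluconeogenic gene pck1, 0.59 ± 0.15) and 2 lower (the alcohol dehydrogenase adh4, -1.51 ± 0.37, and the hexokinase hxk2, -0.32 ± 0.10) of 15. Of 39 genes of respiration and the tricarboxylic acid cycle, 8 were higher (20.5%) and 1 lower (2.56%), with a median of 0.30. They included the ATP synthase genes atp5 (0.96 ± 0.20), atp17 (0.83 ± 0.15) and atp4 (0.55 ± 0.10) and the isocitrate dehydrogenase gene idh2 (0.72 ± 0.14), and the lower gene was idp1, of the NADP-dependent enzyme (-0.70 ± 0.10). The 8 became 6 with quantile normalization, 12 with centred arrays, 0 with no replicate block, and 1 and 0 without wild type at 37 °C of replicate 1 and replicate 2. Of 48 mitochondrial ribosomal protein genes 13 were higher (27.1%) and 3 lower (6.25%), led by mrp7 (0.96 ± 0.16), mrps18 (0.83 ± 0.15), img1 (0.78 ± 0.11) and mrps17 (0.77 ± 0.16), with mrp17 the largest fall (-1.01 ± 0.23). After quantile normalization 8 were called higher, 1 without the replicate block, and 2 and 1 without wild type at 37 °C of replicate 1 and replicate 2.

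Transport and membrane synthesis had members in both directions. Of 29 iron, copper and zinc genes, 8 were lower (27.6%) and 2 higher, and the median of -0.03 turned to 0.10 after quantile normalization, where 2 were called lower and 0 higher. The lower calls were 4 without the replicate block, and 4 and 5 without wild type at 37 °C of replicate 1 and replicate 2. The ferric reductase frp1 had 0.162 and 0.179 in fcp1-452 and 0.387 and 0.478 in wild type (-1.37 ± 0.10). Wild type itself was low for frp1 at 37 °C, since the 26 °C samples of both strains lay between 1.522 and 1.898. The zinc transporter zrt1 had 0.381 and 0.429 in fcp1-452 and 1.033 and 1.028 in wild type (-1.31 ± 0.11). Of 36 lipid genes 8 were lower (22.2%) and 2 higher: the acetyl-CoA carboxylase cut6 (-0.95 ± 0.11), the fatty acid synthase subunit fas2 (-0.95 ± 0.10) and the acyltransferase slc1 (-1.24 ± 0.15) were lower, and ned1, a lipin phosphatase (1.30 ± 0.11), and the sterol gene erg32 (0.86 ± 0.20) higher. The 8 became 5 with quantile normalization and 13 with 16 arrays and a set term, where near copies count as separate samples. Of 14 phosphate and thiamine genes 6 were lower (42.9%) and 0 higher. The 5 largest falls ran from thi4 (-0.72 ± 0.11) through pdx1, the phosphatase pho4 and snz1 to the inositol pyrophosphate kinase asp1 (-0.49 ± 0.14). The 6 lower calls became 2 after quantile normalization, 0 without the replicate block, and 1 and 0 without wild type at 37 °C of replicate 1 and replicate 2. Of 73 secretory genes 11 were lower (15.1%) and 7 higher (9.59%), with the glycosylation genes alg1 (-1.13 ± 0.10) and alg2 (-0.85 ± 0.10) and the transporter hut1 (-1.01 ± 0.12) lower, and the vacuolar Rab gene ypt7 (1.17 ± 0.11) and the fusion factor sec18 (0.95 ± 0.10) higher. The 11 lower and 7 higher calls became 4 and 2 with quantile normalization or with no replicate block, and 3 and 3, or 3 and 2, without wild type at 37 °C of replicate 1 or replicate 2.

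Several meiotic transcripts rose in cells that had nitrogen. Growing fission yeast destroys a set of meiotic mRNAs through the RNA-binding protein Mmi1 and the nuclear exosome. Of 7 measured targets of this pathway 3 were called higher, 0 lower, and the median was 1.13. The cohesin gene rec8 had 1.463 and 1.501 in fcp1-452 and 0.87 and 0.43 in wild type (1.26 ± 0.31, adjusted p = 0.0286), the forkhead factor mei4 had 1.783 and 1.114 in fcp1-452 and 0.886 and 0.463 in wild type (1.17 ± 0.18), and the kinase mek1 had 1.481 and 2.742 in fcp1-452 and 0.888 and 1.026 in wild type (1.13 ± 0.28). The mutant sample of replicate 2 of mei4 lay within the range of the 26 °C samples of both replicates. Within replicate 2 it was above the others, which lay between 0.463 and 0.576. For rec8 and mek1 the mutant stood above all others. The targets spo5 (1.14 ± 0.38, adjusted p = 0.0666), num1 (0.87 ± 0.38, adjusted p = 0.13), ssm4 (0.79 ± 0.56, adjusted p = 0.321) and crs1 (0.00 ± 0.20, adjusted p = 0.991) were not called. The count of 3 became 1 with quantile normalization, 0 with no replicate block, and 0 and 1 without wild type at 37 °C of replicate 1 and replicate 2. Of 26 genes of nuclear RNA surveillance and 3' end formation themselves, 1 was called, the cleavage factor subunit cft2 (-0.89 ± 0.14).

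Of 40 genes of meiotic chromosome pairing, recombination and division, 7 were higher (17.5%, near the 13.9% of all named genes) and 0 lower. The 7 became 3 after quantile normalization, 0 without the replicate block, and 0 and 2 without wild type at 37 °C of replicate 1 and replicate 2. The Mnd1-like recombination gene mcp7 had 3.211 and 3.308 in fcp1-452 and 1.118 and 0.881 in wild type (1.72 ± 0.25, adjusted p = 0.00669), and the cohesin protector sgo1 was higher (1.09 ± 0.22). Of 36 genes of pheromone signalling and the Ste11 pathway, 7 were higher (19.4%) and 8 lower (22.2%), which became 4 and 1 after quantile normalization, 0 and 1 with no replicate block, and 3 and 2, or 2 and 3, without wild type at 37 °C of replicate 1 or replicate 2. The master regulator of mating ste11 had 1.963 and 1.35 in fcp1-452 and 0.907 and 0.619 in wild type (1.10 ± 0.15, adjusted p = 0.00566), the fusion formin fus1 had 1.778 and 6.028 in fcp1-452 and 0.894 and 1.414 in wild type (1.60 ± 0.35), and the M-factor precursor gene mfm3 was higher (0.99 ± 0.13). The cyclic AMP phosphodiesterase cgs2 (-1.33 ± 0.16) and mam4, which modifies M-factor (-1.11 ± 0.18), were lower. Another M-factor gene, mfm2, had 0.118 and 0.271 in fcp1-452 and 36.37 and 1.322 in wild type, and was not called (-5.29 ± 1.63, adjusted p = 0.0534). Wild type of replicate 1 was as high at 26 °C (39.44), where the strain difference was -2.70 ± 1.63, so mfm2 did not separate by temperature. Mating pheromone genes also differed between the strains in the starved arrays at 26 °C, 1 per strain, where ratios are those of set 1. There map2, the gene of the P-factor made by the other mating type, was at 83.32 in fcp1-452 and 0.698 in wild type. The M-factor genes mfm1 and mfm3 were at 7.016 and 1.434 in fcp1-452, against 102.7 and 42.59 in wild type. The part of mating type in the pheromone values was not tested.

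Genes of the transcription apparatus itself changed in small amounts and in both directions. Of 21 regulators of the polymerase II tail 1 was higher (4.76%) and 3 lower (14.3%), both under the background shares. The 3 lower calls became 1 with quantile normalization and 0 with no replicate block, and the median of -0.11 turned to 0.01 after quantile normalization. The capping triphosphatase pct1 had 0.501 and 0.274 in fcp1-452 and 1.035 and 0.642 in wild type (-1.13 ± 0.16, adjusted p = 0.00611). The elongation factor subunit spt4 (-0.94 ± 0.10) and lsc1, the cyclin of a tail kinase (-0.85 ± 0.10), were lower. The subunit tfg1 of the general factor TFIIF had 2.044 and 1.706 in fcp1-452 and 1.06 and 0.996 in wild type (0.83 ± 0.11), both mutant samples being above the rest. Of 17 polymerase II subunits and general factors 6 were higher (35.3%) and 4 lower (23.5%), all under 2-fold, from rpb8 (-0.78 ± 0.10) to toa1 (0.58 ± 0.17), with rpb3 (-0.55 ± 0.16), tbp1 (0.49 ± 0.11) and rpb4 (0.46 ± 0.11) between. After quantile normalization 2 were called each way, 0 without the replicate block, and 0 higher and 1 lower without either wild-type sample at 37 °C. Of 23 subunits and factors of polymerases I and III, 6 were lower (26.1%) and 0 higher. The polymerase III subunit rpc25 had 0.698 and 0.247 in fcp1-452 and 1.581 and 0.886 in wild type (-1.51 ± 0.25), and sfc6 of TFIIIC (-1.06 ± 0.12) and the polymerase I genes rpa43 (-0.80 ± 0.13), nuc1 (-0.54 ± 0.11) and rpa34 (-0.49 ± 0.13) were lower. The 6 became 2 after quantile normalization, 1 without the replicate block and 2 without either wild-type sample at 37 °C.

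Splicing, repair and nutrient signalling genes moved both ways. Of 82 spliceosome genes 18 were higher (22.0%) and 5 lower (6.10%). The tri-snRNP genes snu23 and prp3 went opposite ways. The gene snu23 had 1.467 and 2.39 in fcp1-452 and 0.641 and 1.006 in wild type (1.24 ± 0.11, adjusted p = 0.00262), and prp3 had 0.393 and 0.444 in fcp1-452 and 1.132 and 0.971 in wild type (-1.33 ± 0.13, adjusted p = 0.00312). The genes cwf24 (1.13 ± 0.14) and cwf23 (1.02 ± 0.14) were higher and usp108 lower (-0.96 ± 0.12). The 18 higher calls became 9 after quantile normalization, 0 without the replicate block, and 4 and 6 without wild type at 37 °C of replicate 1 and replicate 2. Of 70 repair and checkpoint genes 16 were higher (22.9%) and 17 lower (24.3%). Beside mag1, chk1 and cdt2, the topoisomerase gene top3 had 0.543 and 0.458 in fcp1-452 and 2.111 and 1.057 in wild type (-1.57 ± 0.23), and the recombination mediator rad55 was lower (-1.46 ± 0.33). The 16 higher and 17 lower calls became 5 and 10 after quantile normalization, 4 and 4 with no replicate block, and 3 and 7, or 4 and 8, without wild type at 37 °C of replicate 1 or replicate 2. Of 36 genes of TOR and protein kinase A signalling 6 were higher and 6 lower (16.7% each). The TOR complex 2 target kinase gad8 was higher (0.81 ± 0.16), and the phosphatase ppe1 (-1.21 ± 0.27) and the kinase ppk18 (-0.82 ± 0.13) were lower, beside isp7 and cgs2. After quantile normalization 3 were higher and 2 lower, without the replicate block 0, and without wild type at 37 °C of replicate 1 or replicate 2 1 or 0 higher and 2 lower.

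The interaction of strain and temperature tested whether the strain difference at 37 °C exceeded that at 26 °C, and uses the same samples. The interaction was called for 590 probe sets (11.8%), 206 more positive in fcp1-452 (4.12%) and 384 more negative (7.68%). All of these were also called in the strain difference at 37 °C. Both contrasts share the values at 37 °C, and differences at 26 °C were near 0 (SD 0.13), so this overlap is no separate support. By list the interaction was called for 10 of 19 MBF targets, 7 of 37 septation genes, 13 of 47 amino acid genes and 4 of 10 nitrogen uptake genes, each more negative. It was called for 8 of 25 autophagy genes and 3 of 22 chaperone genes, each more positive. It was not called for hsp16 (2.52 ± 0.98, adjusted p = 0.146) or zym1 (1.95 ± 0.79, adjusted p = 0.156). The count of 590 was 7 without the replicate block, 19 after quantile normalization, and 0 when either wild-type sample at 26 °C was left out.

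The strains were also compared at 37 °C without nitrogen, in arrays that the comparison above did not use, 1 per strain and so without a test. There 851 probe sets were 2-fold or more higher in fcp1-452 (17%) and 873 lower (17.5%). Of the 736 probe sets called higher with nitrogen, 561 (76.2%) were also positive without it, against 50.2% of all probe sets, and 262 were so by 2-fold or more. Of the 962 called lower, 716 (74.4%) were also negative, against 49.7% of all, and 358 were so by 2-fold or more. Opposite differences of 2-fold or more were found for 26 and 60. Over all probe sets r was 0.376 across probe sets, as a description.

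The gene groups differed in whether their values recurred without nitrogen. The median of the MBF targets was 0.22 there, with 5 at 2-fold or more higher and 3 lower, and that of the histone list was 0.71. The gene cdt1 was at -0.04, cdc22 at 0.16 and cig2 at 0.52, so the low values seen with nitrogen were not present. The cell surface genes adg1 and adg2 were at 0.76 and 2.99, opposite to their falls with nitrogen. For amino acid biosynthesis the median was -0.55, with 12 of 47 lower by 2-fold or more, and for nucleotide biosynthesis -0.55, medians close to those with nitrogen. The nucleotide genes went both ways there, with 3 of 18 higher and 3 lower by 2-fold or more: the purine genes ade2, ade7 and ade6 were at -1.61, -1.17 and -1.12, and the pyrimidine genes ura3, ura1 and ura5 at 1.76, 1.03 and 1.01. The Hsp70 gene ssa1 was at 2.23, hsp16 at 3.03, psi1 at 2.31, ntp1 at 1.59, tps1 at 1.53, atg13 at 1.62, atg1 at 1.72, rpn11 at 2.37, mcp7 at 2.63 and mei4 at 1.84, all on the side they had with nitrogen. Other stress genes did not recur in this way: ctt1 was at 0.18, zym1 at -0.15 and ish1 at -0.49. In the core stress response list 12 of 45 genes were higher by 2-fold or more without nitrogen and 7 lower (median 0.31). The meiotic genes rec8, sgo1 and spo5 were at -0.37, -1.42 and -1.25, on the opposite side. The transporters put4 and isp5 were at -1.55 and -1.38, while aat1 and amt1 were at 0.13 and -0.17. The groups with and without nitrogen were not tested against each other.

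**Figure D4:**
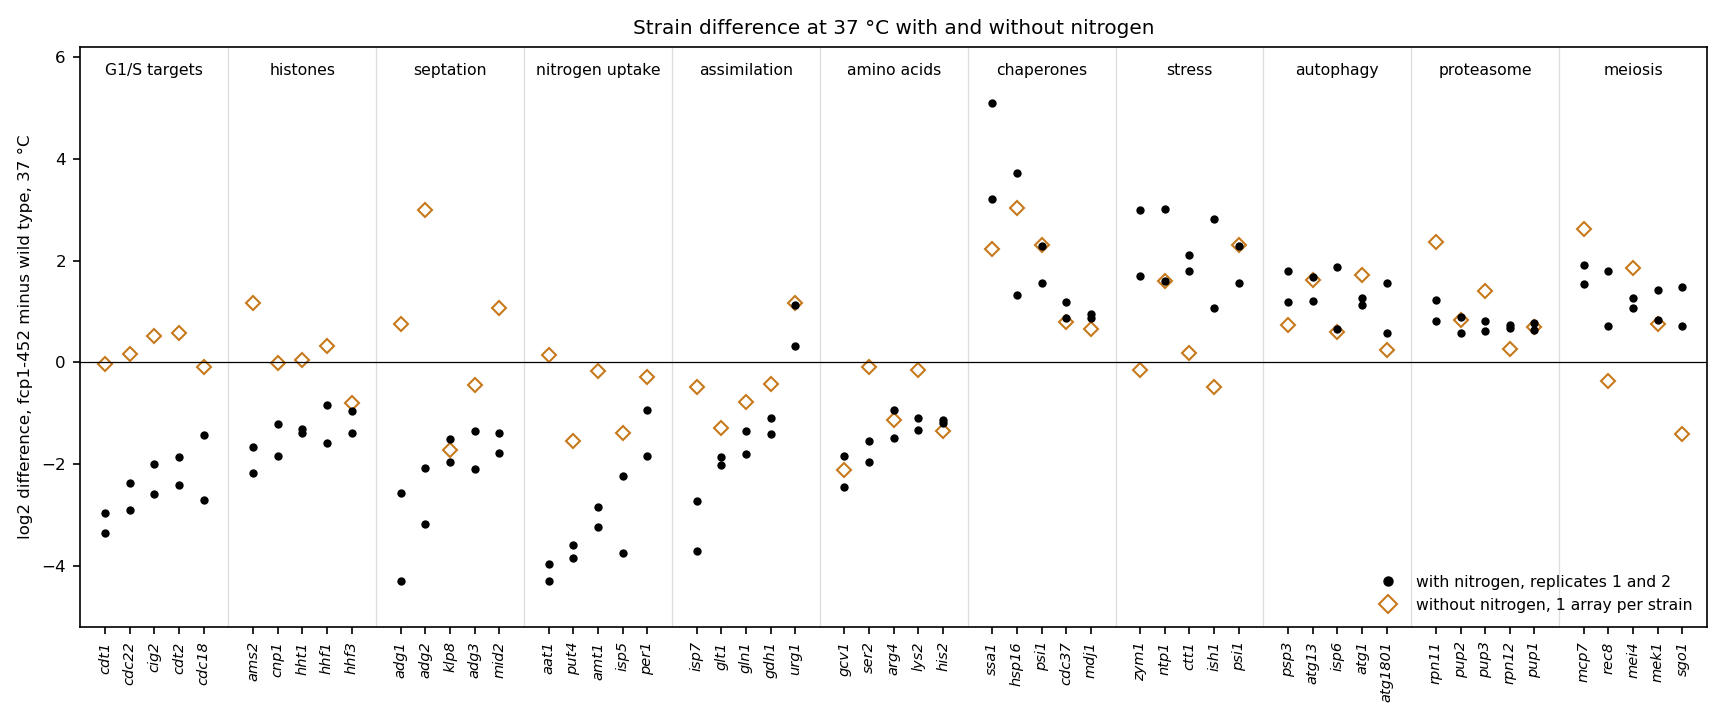
Log2 difference of fcp1-452 minus wild type at 37 °C for the called genes with the largest differences in 11 lists, with nitrogen in replicates 1 and 2 (black points) and without nitrogen in 1 array per strain (open diamonds). The diamonds of the G1/S targets lie near 0 and that of the histone regulator ams2 at 1.16, while those of the chaperones and of atg1 and atg13 are on the same side as the black points, that of ssa1 (2.23) below both of them and that of atg1 (1.72) above both.

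Starvation of wild type at 26 °C was read from a pair of set 1 arrays, 1 starved and 1 fed. Neither is among the 6 arrays of the comparison, but the fed one is part of the 26 °C samples in the fit. The pair gave a reference for which of these genes respond to nitrogen itself. Starved minus fed, 630 probe sets were higher by 2-fold or more (12.6%) and 713 lower (14.3%). Of those called higher in fcp1-452, 63.7% were positive on starvation, against 46.5% of all, and of those called lower 65.9% were negative, against 53.4% of all (r = 0.220 across probe sets, as a description). Autophagy genes were higher on starvation (median 1.01, 14 of 25 by 2-fold or more), the direction they had in fcp1-452. Nitrogen uptake genes had a starvation median of 1.35, with 6 of 10 higher by 2-fold or more, opposite to their falls in the mutant: isp5 was at 4.01, amt1 at 1.97 and put4 at 1.25. Of the uptake genes called lower the exception was aat1, at -2.98 on starvation and -4.13 in the mutant. The transcript of mug108, at 5.13 on starvation, and that of ste11, at 2.92, had the same sign in both.

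Genes beside each other on a chromosome in the RefSeq order of protein-coding genes were compared last. A run of neighbours was lower together: the predicted alanine racemase gene alr2 (-1.36 ± 0.23, adjusted p = 0.0102), aat1 next to it, abc3 after 1 gene not named on the array, and mug14 next to abc3. The permease gene isp5 and mmf2 are adjacent and fell together, as are gal10 and gal1, while gal7, 2 genes from gal10, was not called. The repeat-family gene wtf21 beside amt1 was lower (-1.55 ± 0.27), though members of this family are near-identical. Beside cdt1, wpl1 (-0.998 ± 0.14) and alp6 (-1.02 ± 0.11) were lower within 2 genes. Such runs were the exception: of 1694 adjacent pairs with both genes measured, 73 were both lower, 30 both higher and 83 opposite, and r over pairs was 0.084. Since 18.4% of all named genes were lower and 13.9% higher, some such pairs arise without a link between neighbours. The pair counts were not tested against that, and the runs were named because a neighbour was called the same way.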

How the data were processed

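Polyadenylated RNA of Schizosaccharomyces pombe was hybridised to Affymetrix arrays, per the labels' protocols. The authors deposited linear ratios for 4999 probe sets. The submitters' processing notes name RMA without a version. Within each set every probe set has a median ratio of 1. The lowest ratio, 0.01, was reached by 4 of 79984 values.

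Log2 ratios were compared within replicates, because replicate numbers deviated together (r = 0.640 to 0.870 over 6 pairs of groups). Set 1 was put on the scale of set 2 and averaged with replicate 1, which left 12 samples in 8 groups. The fit used limma 3.58.1 (R 4.3.3, group means plus replicate block, 3 residual degrees of freedom), with Benjamini-Hochberg adjustment over all probe sets and calls at an adjusted p under 0.05. The fit was tested on simulated data. No filter on low values was used.

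Platform annotation gave 1 gene for 2917 probe sets, several for 20 and none for 2062. The RefSeq table of assembly ASM294v3 held 2914 of the genes and updated 113 names. It was used for names and neighbours, and no sequence or coordinate is given. For the 14 genes with several probe sets the one listed first was used.

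The comparison, its 37 gene lists and the rule for named genes were chosen with earlier results of these data known. The rule names fcp1, the 15 named genes with the largest rise and fall, up to 5 called members of each list (all members of lists of up to 8), uncalled members with their values, and called neighbours. After values were seen, 8 entries were taken out of lists to which their known role did not belong. Promoter motifs were not searched. Alternatives were quantile normalization, centring, no replicate block, 16 arrays with a set term, set 2 alone, 37 °C alone, a low-value filter, a 2-fold minimum and leaving out samples.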

Additional observations from a re-analysis of the deposited data

Results flagged for a closer look

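The strain difference was larger at 37 °C than at 26 °C by the interaction test of limma for 206 probe sets that were more positive and 384 that were more negative in fcp1-452. Among the 30 genes with the largest changes, the interaction was more positive for ssa1 (4.29), mug108 (3.35), mag1 (1.80), tps1 (1.87) and etr1 (2.20). More negative values were found for aat1 (-4.14), put4 (-3.67), gal1 (-3.61), mmf2 (-3.60), adg1 (-3.48), cdt1 (-3.24), rpl1603 (-3.15), isp7 (-3.12), abc3 (-3.03), isp5 (-2.97), mug146 (-2.87), amt1 (-2.84) and gal10 (-2.75). In the 26 °C samples, where p-values can be too large, none of these genes was called. The genes were chosen by their difference at 37 °C, from which the interaction subtracts that at 26 °C. Their interaction is thus no separate support.

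Of the same 30 genes, 7 had the opposite sign at 37 °C without nitrogen, where each strain has 1 array. Higher with nitrogen and at or below 0 without it were etr1 (-0.49), ish1 (-0.49), zym1 (-0.15) and mug147 (-0.13). Lower with nitrogen and above 0 without it were adg1 (0.76), mug14 (0.49) and aat1 (0.13). These differences between the media were not tested.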

How the results depend on the processing

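The counts of calls depended on how the spread was estimated, while directions of the named genes, chosen mainly for large differences, mostly did not. The 736 higher and 962 lower calls at 37 °C became 129 and 211 with no replicate block, 375 and 346 after quantile normalization, where the excess of lower calls was not kept, and 404 and 626 from the 37 °C samples alone. With a minimum of 2-fold they were 171 and 311. Leaving out samples gave 57 to 1048 higher and 116 to 1375 lower. Without both wild-type samples of replicate 2 the counts were 57 and 116, and without wild type at 37 °C of replicate 1 they were 179 and 303, of replicate 2 221 and 330. Without either fcp1-452 sample at 26 °C 470 were higher. At 26 °C leaving out samples gave 0 to 1 calls. The interaction count of 590 became 7 with no replicate block, 933 with 16 arrays and a set term, 19 after quantile normalization, 19 without both wild-type samples of replicate 2, and 0 to 1717 when samples were left out. It was 39 and 53 without wild type at 37 °C of replicate 1 and 2, 10 and 13 without fcp1-452 at 26 °C, 1717 and 1220 without fcp1-452 at 37 °C, and 0 without either wild-type sample at 26 °C. The cause of these shifts was not tested. The setting with 16 arrays counts near copies as separate samples, with 7 residual degrees of freedom instead of 3, so its 933 can be too high. Set 2 alone, centring and the low-value filter moved none of these counts over all probe sets by over 1.5 times. The 30 largest changes kept their sign in every alternative that had a value for them, and the low-value filter had one for 23. These genes were chosen for large differences of the same sign in both replicates, so a kept sign was largely set by the choice. With no replicate block 20 of the 30 were called, after quantile normalization 25, and without wild type at 37 °C of replicate 1 and 2 19 and 22. Signs turned for crs1 (-0.016 with 16 arrays, -0.21 to 0.22 when samples were left out, -0.21 without fcp1-452 at 37 °C replicate 2, -0.13 without wild type at 37 °C replicate 1) and ssm4 (-0.10 to 1.67 when samples were left out, -0.10 without fcp1-452 at 37 °C replicate 2), neither of which was called. The deposited ratios keep no signal over background, so weakly expressed genes cannot be set apart.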
